A study of Mus musculus with 29 samples.

Results

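The control libraries of this mouse series describe the baseline transcriptome of the megakaryocyte-erythrocyte progenitor (MEP). MEP is the bone marrow cell that gives rise to platelets and red cells. The controls were chosen by title, as the libraries named for the Cre transgene alone, and they are 5 of 29 libraries. Their genotype is Ezh2 +/+ with the ScleCre transgene (also written SclCre, a Cre recombinase driven from Scl, the gene Tal1) and without JAK2 V617F. Replicates 1 and 2 came from males and replicates 3, 4 and 5 from females. The other 24 libraries carry the same transgene and are Ezh2 +/- (4 libraries) or Ezh2 -/- (4), or carry JAK2 V617F with Ezh2 +/+ (4), +/- (6) or -/- (6). All 29 carry Cre, so no library shows MEP without it. The sources used here do not give the sorting gate, the strain, the age or which part of Ezh2 was deleted. RNA was taken from 230000 sorted cells per library. The labels say only "replicate", so within a sex the spread between libraries may be technical or may come from separate animals. Male and female libraries cannot share an animal.

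In MEP, the transcription factors GATA1 and KLF1 act on genes for heme, globin and red cell membrane proteins, together with TAL1, LMO2 and LDB1. KIT and the erythropoietin receptor carry the growth signals. The Polycomb complex PRC2, which contains EZH2, methylates histone H3 at lysine 27 and keeps developmental genes silent. RNA here is from a bulk population, so fewer cells of a type and less RNA per cell cannot be told apart.

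Each library held 34849398 to 59448945 counts over 18834 genes. Levels are given in TPM (counts per kilobase of the deposited gene length, scaled to the same total in every library), the scale on which different genes can be set side by side. A gene is called on at 1 TPM or more in all 5 libraries and off below 1 TPM in all 5. Replicate 5 stood apart from the others: it lay at 0.83 on the first principal component, which held 66.1% of the variance of log2 counts, while the others lay between -0.49 and 0.03. The lists of other blood lineages are therefore given library by library below, so that their values can be read with and without replicate 5. Replicates 1 and 2 were the most alike pair, and their counts still differed beyond sampling noise (chi-square over its degrees of freedom 11.8), so they are not 1 library deposited 2 times. That says nothing on whether these 2 libraries came from separate animals.

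The 4 MEP markers are shown first by the DNA before their start sites. It was searched for short motifs that GATA and KLF factors can bind, and binding was not measured. The windows are the 250 bases before the start in RefSeq, build GRCm38.p6, which is not the mm9 build of the deposited counts, and each reads 5′ to 3′ on the gene's strand. They lie at chrX:7967911-7968160 (minus strand), chr8:84901732-84901981 (plus strand), chr9:21963577-21963826 (minus strand) and chr5:75574737-75574986 (plus strand), the last being the first of 2 entries for that gene. Capitals mark AGATAA or TGATAA, letters bound by GATA factors, and CACCC, letters bound by KLF factors, on either strand.
Gata1: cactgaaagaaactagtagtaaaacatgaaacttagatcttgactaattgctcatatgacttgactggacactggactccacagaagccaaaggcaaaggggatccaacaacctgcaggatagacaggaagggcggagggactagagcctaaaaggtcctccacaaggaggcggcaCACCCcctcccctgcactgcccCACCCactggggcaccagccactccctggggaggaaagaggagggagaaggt
Klf1: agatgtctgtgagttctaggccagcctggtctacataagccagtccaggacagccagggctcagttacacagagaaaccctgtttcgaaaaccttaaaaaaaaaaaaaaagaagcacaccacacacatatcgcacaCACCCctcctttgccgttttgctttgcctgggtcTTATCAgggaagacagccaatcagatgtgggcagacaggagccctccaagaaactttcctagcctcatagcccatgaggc
Epor: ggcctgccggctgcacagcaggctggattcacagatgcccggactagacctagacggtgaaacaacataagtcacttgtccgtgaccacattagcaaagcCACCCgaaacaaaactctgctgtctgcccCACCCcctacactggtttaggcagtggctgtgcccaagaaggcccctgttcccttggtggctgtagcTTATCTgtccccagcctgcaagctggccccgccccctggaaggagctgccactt
Kit: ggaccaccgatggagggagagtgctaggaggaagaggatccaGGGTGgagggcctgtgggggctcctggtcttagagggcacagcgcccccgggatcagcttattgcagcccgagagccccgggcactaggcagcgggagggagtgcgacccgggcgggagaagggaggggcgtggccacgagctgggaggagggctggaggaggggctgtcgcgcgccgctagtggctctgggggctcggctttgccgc

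The Klf1 and Epor windows each held 1 match to AGATAA or TGATAA, and the Gata1 and Kit windows held 0. Over all 32851 windows of the same length, 16.6% held such a match, and among windows of genes that were on in control MEP the share was 9.31%. CACCC was found in all 4 windows, 2 times each for Gata1 and Epor and once each for Klf1 and Kit. It was present in 52.0% of all windows and in 56.6% of windows of genes that were on. No 2 matches overlapped. A match is only a description of the letters.

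The MEP label held in all 5 libraries. Gata1 stood at 280, 293, 269, 288 and 245 TPM in replicates 1 to 5, with a mean of 275 ± 19 (SD, n = 5). Klf1, the erythroid Krüppel factor, stood at 346, 395, 333, 370 and 276 TPM (344 ± 44.9). Both were lowest in replicate 5, and no library was near the on threshold. Kit, the receptor for stem cell factor, stood at 269, 243, 243, 221 and 213 TPM (238 ± 21.9). Epor, the erythropoietin receptor, stood at 209, 206, 187, 203 and 176 TPM (196 ± 14.1). The ratio of Klf1 to Gata1 in TPM stayed within 1.13 to 1.35. Of 16 genes of stroma and endothelium, 4 were on. These were Pecam1, an adhesion protein of endothelium and platelets (9.85 to 23.9 TPM), Col1a2, a collagen chain (4.88 to 8.72 TPM), Tie1, an endothelial receptor (1.43 to 9.69 TPM), and Pdgfrb, a receptor of stromal cells (1.46 to 6.18 TPM), and all 4 were highest in replicate 5. The 2 genes used as markers of these cells were lower: Cdh5, an endothelial cadherin, had 0 counts in 4 libraries and 7 in replicate 5, and Col1a1, the partner chain of Col1a2, did not pass 0.125 TPM.

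**Figure D1:**
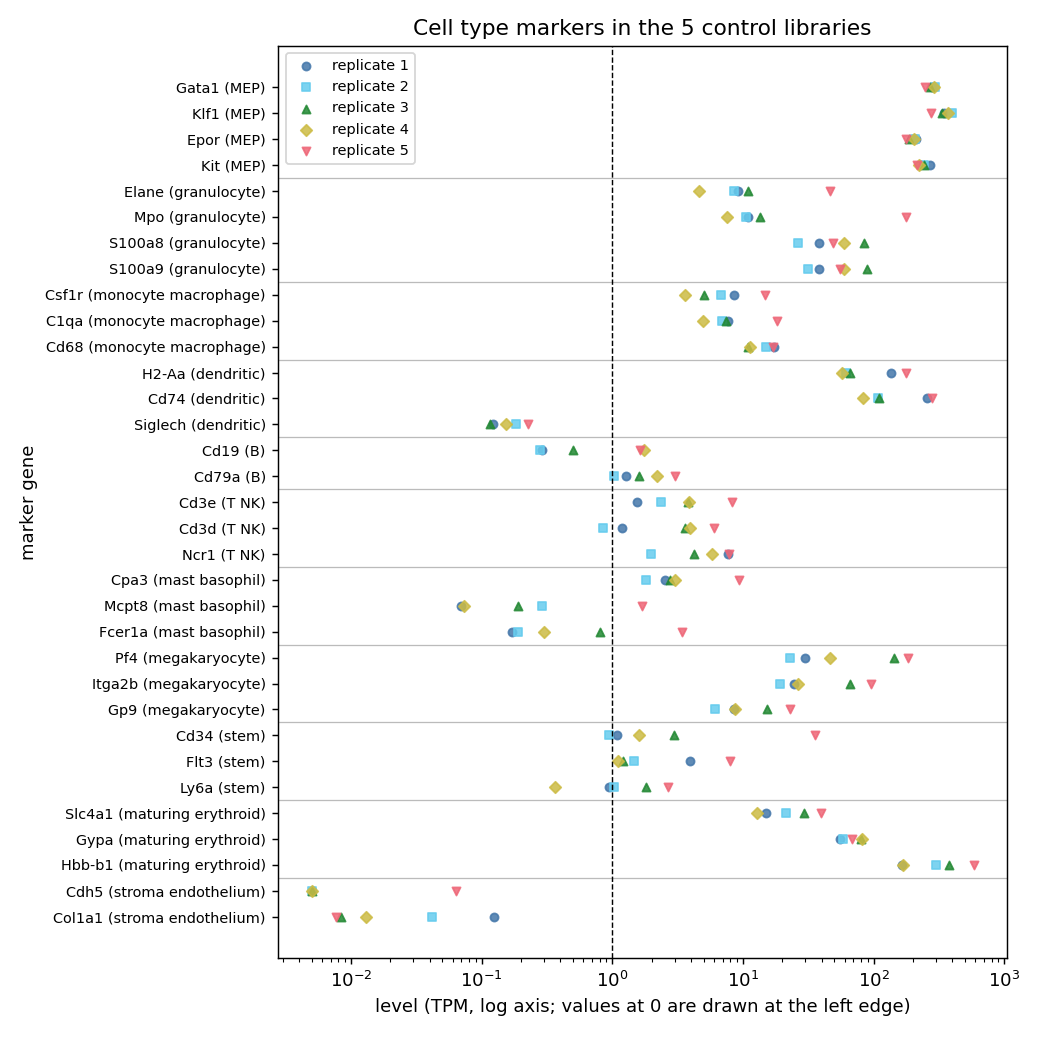
Level of each cell type marker in TPM (log axis) in the 5 control libraries, with 1 point per library and a dashed line at 1 TPM. The 4 MEP markers sit between 176 and 395 TPM with little spread, while Mpo and Cd34 separate replicate 5 from the others.

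Of the 18834 genes, 10854 were on in all 5 libraries (57.6%), 1047 reached 1 TPM in some, and 6933 in none. At most 3 counts per library were found for 3733 genes, and 1511 of them had 0 counts in all 5. Without replicate 5 the number on was 10879. Levels reached 100 TPM for 2022 genes and 1000 TPM for 120.

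The most abundant messages were those of the translation machinery. Eef1a1, which delivers aminoacyl-tRNA to the ribosome, led with 11791 ± 527 TPM and a range of 11194 to 12482. Ribosomal proteins followed, with Rplp1 at 9287 ± 802 TPM and Rps12 at 6944 ± 599. The list of 78 ribosomal proteins was on in full and gave 18 of the 25 highest genes, beside Rps27rt, a ribosomal gene that is not on that list. It took 17.8, 18.2, 19.5, 19.98 and 20.9% of TPM in replicates 1 to 5. The leading cell type gene was Car1, carbonic anhydrase 1 of red cells, which had rank 4 at 5992 ± 559 TPM. It stood between 6108 and 6476 TPM in replicates 1 to 4 and at 5028 in replicate 5. Its relative Car2 stood at 2404 ± 321 TPM. Also in the top 25 were Rack1 (4656 ± 278 TPM), a ribosome-bound scaffold, the chaperone Hsp90ab1 (4297 ± 330 TPM) and Eef2 (4081 ± 271 TPM), which moves the ribosome along.

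**Figure D2:**
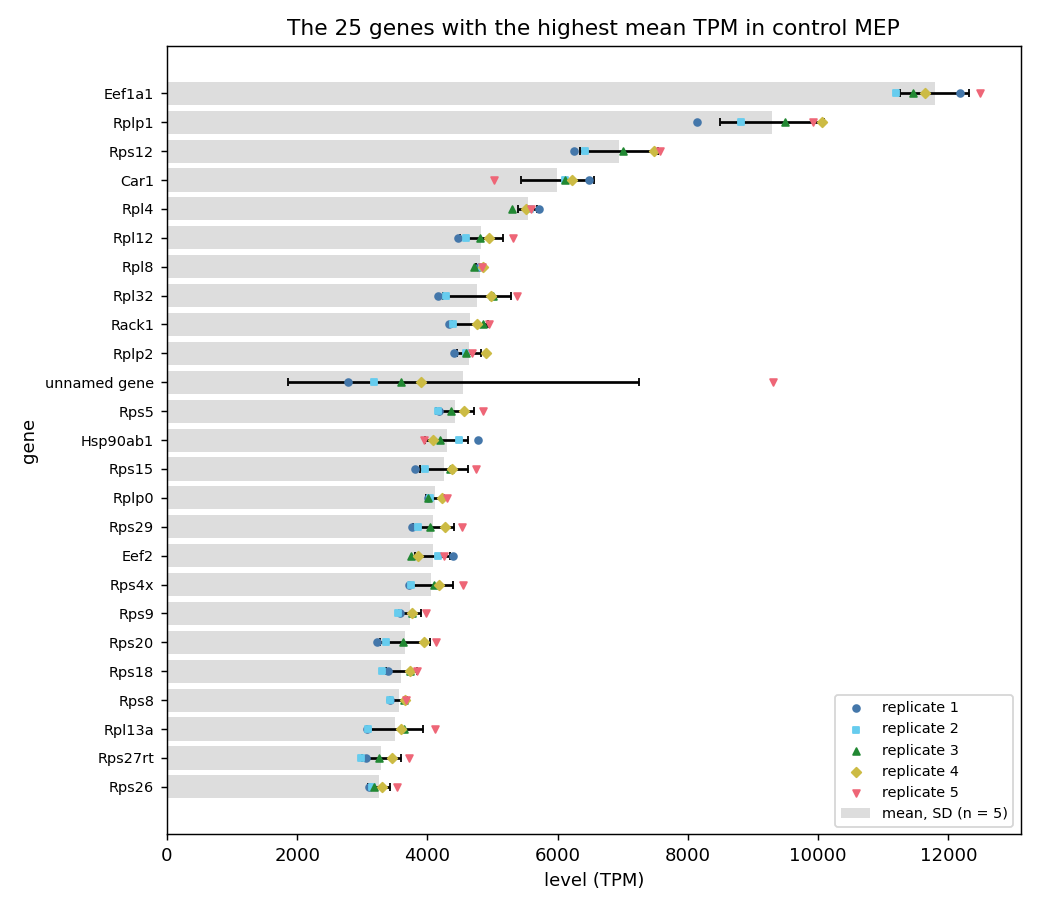
Mean level in TPM of the 25 highest genes (grey bars from 0, error bars SD, n = 5) with 1 point per library. Eef1a1 leads at 11791 TPM, Car1 has rank 4 at 5992, and the unnamed gene spreads most, from 2786 to 9311.

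These 25 genes together held 12.2% ± 0.75 (SD, n = 5) of TPM, and no single message dominated a library. Ranked by counts without length, the leading 25 were partly different: 12 were shared, and the leading 25 by counts held 7.93% of counts. 1 of the 25 has the Entrez identifier 100861531 and is not named by the gene table used here. On the count scale this gene led, with a mean of 12189 CPM against 9636 for Eef1a1, and replicate 5 raised its mean. It took 0.721 to 1.06% of counts in replicates 1 to 4 and 2.51% in replicate 5. A high share was also found outside the controls. In the Ezh2 +/- group the gene took 0.842 to 1.26% in replicates 1, 2 and 4 and 2.42% in replicate 5. It is left without a description.

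All 32 transcription factors of the erythroid, megakaryocytic and early blood lists were on. Myb, which keeps progenitors dividing, was the highest at 645 ± 42.0 TPM with a range of 603 to 705. Then came Ldb1 (396 ± 40.7 TPM) and Lmo2 (375 ± 17.4 TPM), the bridging parts of the GATA1 complex. After Klf1 and Gata1 came Zfpm1 (263 ± 19.4 TPM), which encodes the GATA partner FOG1, Ikzf1 (257 ± 18.3 TPM) and Tcf3 (223 ± 17.6 TPM). The summed TPM of the list differed little between libraries, from 4126 to 4480.

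A further 4 factors of that list were named after their values were seen. Gata2, the GATA factor of stem cells and early progenitors, stood at 84.8, 61.6, 83.7, 63.2 and 126 TPM. Spi1, the myeloid factor PU.1, stood at 12, 8.49, 9.47, 8.79 and 25 TPM. Cebpa, a granulocyte factor, stood at 2.44, 1.72, 2.34, 1.93 and 8.69 TPM. All 3 were highest in replicate 5, with no overlap between it and the other 4. Fli1, an ETS factor of the platelet lineage, stood at 10.5, 8.08, 16.4, 11.2 and 26 TPM and was next highest in replicate 3. Of 20 factors of other blood lineages, 9 were on (45.0%, against 57.6% of all genes), and the highest was Runx3 at 44.9 ± 6.68 TPM.

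Among 39 cytokine and growth factor receptors, 29 were on (74.4%, against 57.6% of all genes). The interferon gamma receptor chain Ifngr1 (244 ± 18.1 TPM), Kit and Epor led and were near each other in level. The common gamma chain Il2rg followed at 68.3 ± 8.25 TPM, then Tgfbr3 (40.6 ± 4.80 TPM) and Cxcr4 (37.2 ± 4.79 TPM). Il5ra, the receptor for the eosinophil cytokine, had at most 3 counts per library. Of 23 genes that carry or answer JAK and STAT signals, 21 were on (91.3%). Pim1 (189 ± 61.1 TPM), a STAT5 target, ranged from 132 to 291 and was highest in replicate 5. Mcl1 (175 ± 14.3 TPM), Stat5a (128 ± 7.55 TPM), Jak1 (118 ± 4.64 TPM), Stat5b (95.5 ± 6.66 TPM) and Jak2 (90.5 ± 6.12 TPM) differed less.

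The heme, iron and red cell lists were on in full at the limit of 1 TPM, though levels within them differed widely. All 17 heme genes were on, among them Tmem14c (494 ± 47.0 TPM), a porphyrin transporter of mitochondria, and the pathway enzymes Urod (321 ± 13 TPM) and Cpox (279 ± 33.2 TPM). Alas2 and Alas1, named after their values were seen, were the lowest of the heme list at 16.8 ± 6.56 and 20.4 ± 1.26 TPM. All 16 iron genes were on, led by the ferritin chains Ftl1 (1416 ± 58.8 TPM) and Fth1 (1390 ± 108 TPM). The transferrin receptor Tfrc stood at 386 ± 43.6 TPM. All 28 red cell genes found in the files were on. After Car1 and Car2 these were led by Prdx2 (1108 ± 90.4 TPM), a peroxidase of red cells, the water channel Aqp1 (901 ± 36.4 TPM) and Ermap (437 ± 65.1 TPM). Their summed TPM was 13229, 13031, 13054, 13526 and 11042 in replicates 1 to 5, so replicate 5 was the lowest and lay outside the range of the others.

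Adult globin was present at a modest level and varied widely. Hbb-b1, a beta chain, stood at 165, 301, 379, 169 and 581 TPM. Hba-a1, an alpha chain, stood at 84.9, 147, 154, 85 and 213 TPM. Replicates 1 and 4 were low and replicate 5 high for both genes. The counts of Hba-a1 and Hba-a2 were identical in all 29 libraries, as were those of Hbb-b2 and Hbb-bt. Hbb-b1 and Hbb-bs had the same counts in the 5 controls. All 6 globin genes that were on therefore form pairs whose reads were not told apart, and their values are uncertain. The summed TPM of the 11 globin genes ran from 638 to 1963 and holds each pair's counts 2 times. Slc4a1, the anion exchanger of mature red cells, was likewise low in replicates 4 and 1 (12.8 and 15.04 TPM) and highest in replicate 5 (39.8 TPM). The embryonic genes Hbb-y, Hbb-bh1 and Hba-x had at most 2 counts in any library.

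The cells carried the messages of active division. All 27 DNA replication genes were on, led by the sliding clamp Pcna (669 ± 28.3 TPM) and the helicase parts Mcm6 (648 ± 18.8 TPM) and Mcm7 (565 ± 39.7 TPM). All 21 mitosis genes were on, led by Mki67 (335 ± 20.2 TPM), Cenpa (320 ± 35.9 TPM) and Top2a (299 ± 18.5 TPM). Summed mitosis TPM ran from 2221 in replicate 5 to 2874 in replicate 4. Of 19 genes of the G1 phase and its inhibitors 15 were on (78.9%, against 57.6% of all genes), with Cdk4 at 834 ± 58.5 TPM. All 25 genes of oxidative phosphorylation and all 22 of sugar breakdown were on too, with Atp5b (2447 ± 191 TPM) and Ldha (1023 ± 62.5 TPM) in the lead.

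Polycomb parts were among the steadier groups. All 12 PRC2 genes were on, and Ezh2, the methyltransferase that the other genotypes of the series alter, stood at 264, 257, 243, 245 and 222 TPM (246 ± 16). Rbbp7 was higher (401 ± 29.4 TPM), while Suz12 (179 ± 10.2 TPM) and Eed (110 ± 8.65 TPM), the other core parts, were lower. Ezh1, the related enzyme, named after its value was seen, was much lower at 18.3 ± 1.87 TPM. All 19 PRC1 genes were on, led by Bmi1 (53.5 ± 2.76 TPM) and Rnf2 (51.9 ± 3.58 TPM).

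Developmental genes of other tissues were off. Of 25 such genes, 1 was on (4.0%, against 57.6% of all genes) and 24 were off. Of those 24, 14 had at most 3 counts in each library, among them Gata4, Gata6, Sox2, Pax6, Myod1 and H19. The exception, Igf2bp2, stood at 1.86 ± 0.351 TPM. Of 33 Hox genes, 5 were on (15.2%) and 16 were undetected by the same limit of 3 counts. Those on were Hoxa9 (7.59 ± 1.47 TPM), Hoxb4 (2.45 ± 0.491 TPM), Hoxa7, Hoxa5 and Hoxa4. The floor of 3 counts equals 0.0505 to 0.0861 CPM (counts scaled to library size, without gene length) in these libraries and covers counting error only.

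Transcripts of other blood lineages were present at low to moderate level, and their amount depended on the library. For granulocytes, 14 of 24 genes were on (58.3%, against 57.6% of all genes), and the summed TPM was 195, 147, 352, 230 and 625 in replicates 1 to 5. Mpo, myeloperoxidase, stood at 10.9, 10.5, 13.5, 7.54 and 177 TPM. Replicate 5 alone was high for Mpo, and for the granule proteases Prtn3 (95.2 against 9.56 to 14.2 TPM), Elane (46.4 against 4.60 to 10.8) and Ctsg (50.3 against 2.46 to 4.38). S100a8, a neutrophil calcium-binding protein, had another order, at 38.0, 26.5, 84.2, 59.0 and 48.9 TPM, with replicate 3 highest. The ratio of S100a8 to its partner S100a9 stayed within 0.844 to 1.0, whereas S100a8 to Mpo ran from 0.276 to 7.82.

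Antigen presentation followed a further order. Cd74, the invariant chain of MHC class II, stood at 254, 108, 110, 82.9 and 279 TPM, and H2-Aa at 136, 61.9, 65.4, 56.8 and 178 TPM. Replicates 1 and 5 were high for both and did not overlap with the other 3. The summed TPM of the 29 monocyte and macrophage genes, which contain these 2, was 715, 358, 360, 290 and 906. C1qa, a macrophage complement chain, stood at 18.2 TPM in replicate 5 and 4.99 to 7.64 in the others. Siglech, the plasmacytoid dendritic cell marker, was at most 0.228 TPM.

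Among lymphoid genes, those of B cells were low. Of 16 B cell genes 3 were on (18.75%, against 57.6% of all genes), and the summed TPM of the list was 13.3, 8.91, 16.3, 39.1 and 53.6. The early B cell genes Igll1, at 0.0674, 0.280, 1.05, 5.85 and 6.85 TPM, and Dntt, at 0.303, 0.115, 1.17, 5.15 and 5.48 TPM, were high in replicates 4 and 5. Of 31 T and NK cell genes 16 were on (51.6%), led by Nkg7 (102 ± 37.8 TPM) and the chemokine Ccl5 (61.4 ± 34.8 TPM). Their summed TPM was 331, 199, 341, 323 and 638. Cd3e, a part of the T cell receptor, stood at 1.55 to 3.84 TPM in replicates 1 to 4 and 8.28 in replicate 5. Of 20 mast cell and basophil genes 7 were on (35.0%). Most of the list's summed TPM of 633, 604, 732, 696 and 1039 was Srgn (679 ± 164 TPM), which other blood cells also express. The proteases Tpsb2, Tpsab1 and Prss34 had at most 1 count.

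Transcripts of the platelet lineage were present in every library and uneven. Of 40 megakaryocyte genes 27 were on (67.5%, against 57.6% of all genes). The list was led by Fermt3 (356 ± 28.5 TPM) and Tgfb1 (239 ± 22.3 TPM), which other blood cells also express. The summed TPM of the list was 1003, 898, 1294, 929 and 1673. Pf4, platelet factor 4, stood at 29.7, 23, 143, 46.3 and 183 TPM. Itga2b, the CD41 antigen, stood at 24.4, 19.3, 65.7, 26.6 and 95.8 TPM. Replicates 3 and 5 were above the other 3 for both genes without overlap. The platelet receptor chains Gp5 and Gp1ba, named after their values were seen, differed less between libraries. Gp5 stood at 20.9 ± 1.66 TPM, with replicate 5 within the range of the others. Gp1ba stood at 4.71 ± 0.635 TPM and was also higher in replicates 3 and 5 (5.26 and 5.46 TPM) than in the other 3 (3.93 to 4.49). Gp6, the collagen receptor of platelets, had at most 3 counts.

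Genes of stem and multipotent cells were on in 17 of 26 cases (65.4%, against 57.6% of all genes). The list was led by Adgrg1 (212 ± 70.2 TPM), Egr1 (146 ± 50.6 TPM), Eng (118 ± 9.50 TPM) and Angpt1 (70.5 ± 26.9 TPM). Its summed TPM was 653, 558, 696, 546 and 1037. Cd34, an antigen that sorting schemes use to set MEP apart from other myeloid progenitors, stood at 1.10, 0.950, 2.96, 1.61 and 35.8 TPM. Replicate 5 was the only high library. Flt3, a receptor of multipotent cells, stood at 3.91, 1.45, 1.21, 1.11 and 7.92 TPM. The ratio of Cd34 to Kit in TPM was 0.0039 to 0.0122 in replicates 1 to 4 and 0.168 in replicate 5. Interferon response genes, 31 of 33 on (93.9%), had a summed TPM of 7579 in replicate 5 and 5283 to 5597 in the others. B2m, the MHC class I light chain, stood at 3646 against 2556 to 2667 TPM. Immediate early genes, 24 of 26 on (92.3%), were led by Junb (417 ± 77.7 TPM) and Jun (384 ± 84.5 TPM), and both were highest in replicate 5.

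The markers of other cells set out the same contrast in short. The summed TPM of 4 granulocyte markers was 76.9 to 197 in replicates 1 to 4 and 328 in replicate 5, and that of 3 megakaryocyte markers was 48.3 to 224 and 301. For 3 stem cell markers it was 3.09 to 5.99 and 46.4, and for 3 markers of maturing red cells it was 235 to 488 and 689. For 3 mast cell and basophil markers it was 2.29 to 3.78 and 14.4, for 3 monocyte and macrophage markers 19.8 to 33.3 and 49.8, and for 3 T and NK cell markers 5.16 to 13.6 and 22.1. For 2 B cell markers it was 1.31 to 3.95 and 4.66, and for 3 dendritic cell markers 140 to 390 and 457. Replicate 5 was thus the highest library for 9 of the 10 marker sets of other cells and the lowest for the MEP set, at 910 against 1032 to 1137 TPM. Among these markers Cdh5 alone had libraries at 0. The part of these markers in the other values of replicate 5 was not tested.

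**Figure D3:**
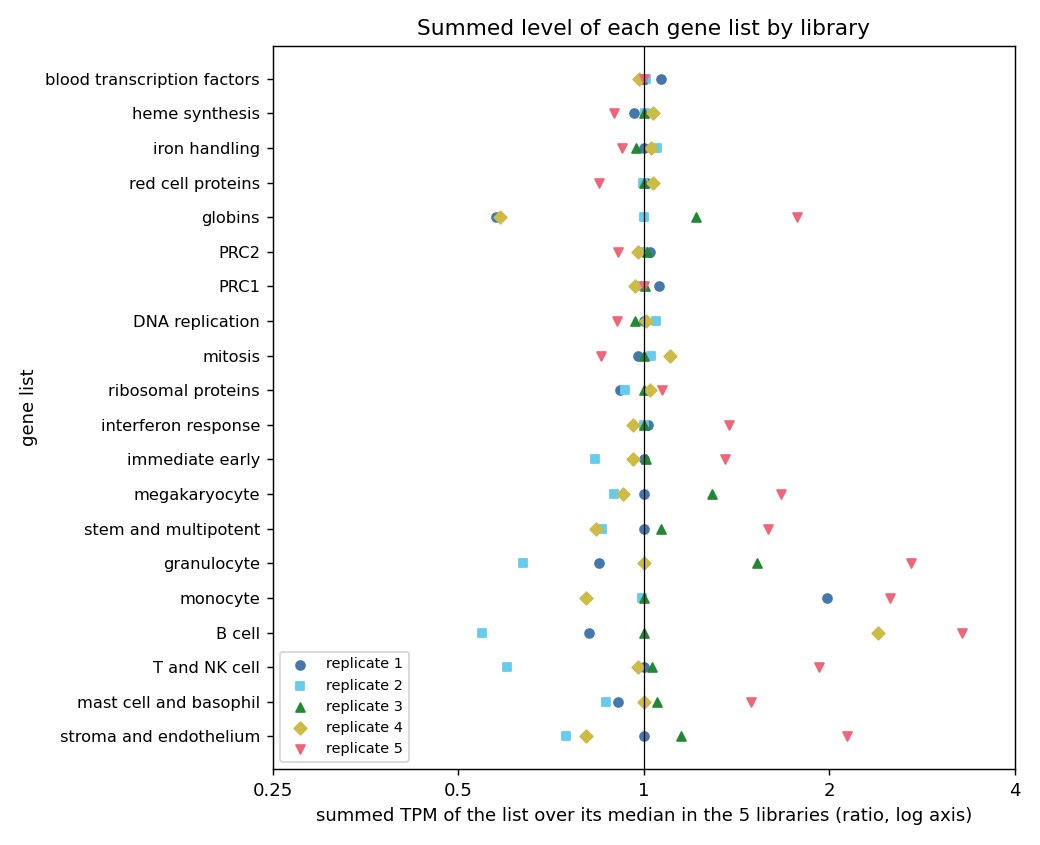
Summed TPM of each gene list in each control library, divided by the list's median over the 5 libraries (log axis). Factors, heme, iron, Polycomb and replication lists lie close to 1, and the lists of other blood lineages spread widely with replicate 5 highest.

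Most genes differed little between the 5 libraries. Spread was measured as the SD of log2 CPM (TMM-scaled, prior count 2) in 10579 genes with a mean of at least 2 CPM. The median SD was 0.12, and 79.4% of genes had an SD of at most 0.2. An SD of at least 1 was found for 82 genes (0.775%), and 5 of these were the sex-linked genes described below. In the group of 4798 genes with at least 50 CPM, 17 had a spread within counting noise. The 15 with the lowest SD among them include Npc2, a lysosomal cholesterol carrier, Pak2, a kinase, and Nudt3, with an SD of 0.01 each.

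The other 77 variable genes mostly shared 1 pattern. Replicate 5 was highest for 72 of them, against 26.3% of all genes tested. Replicate 2 was lowest for 54, and replicates 3 and 5 were the highest pair for 49. For these 2 counts the share among all genes was not computed, so they only describe the 77. The megakaryocyte list gave 14 of the 77, the granulocyte list 7, the stem cell list 4 and the B cell list 1. The T and NK cell, monocyte, and mast cell and basophil lists gave 0. In all, 26 of the 77 were in any of these 7 lists. Of the 40 megakaryocyte genes 30 had a mean of at least 2 CPM, as did 16 of the 24 granulocyte genes. These counts rest on replicate 5. In the counts that follow, as in the 82, sex-linked genes are included, so they are not to be set beside the 77. Without replicate 5, 20 genes had an SD of at least 1, all of them among the 82. Leaving out replicate 1 gave 131 and leaving out replicate 4 gave 128. Without replicates 3 and 5 together 25 remained above the limit, of which 14 were among the 82.

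Next to the granule genes, replicate 5 alone was high for Ccl9, a chemokine (7.72 against 0.227 to 0.684 TPM), F13a1, a clotting factor chain (7.54 against 0.385 to 0.553), Adgrl4 (20.05 against 0.701 to 2.44), Csf3r, the receptor for G-CSF (4.66 against 0.167 to 0.782), and Plppr3 (5.22 against 0.479 to 0.516). Replicates 3 and 5 were both high for Selp, the platelet adhesion protein P-selectin (5.94 and 11.8 against 0.852 to 1.94 TPM) and for Timp3, an inhibitor of matrix proteases (9.33 and 8.22 against 1.01 to 2.09).

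**Figure D4:**
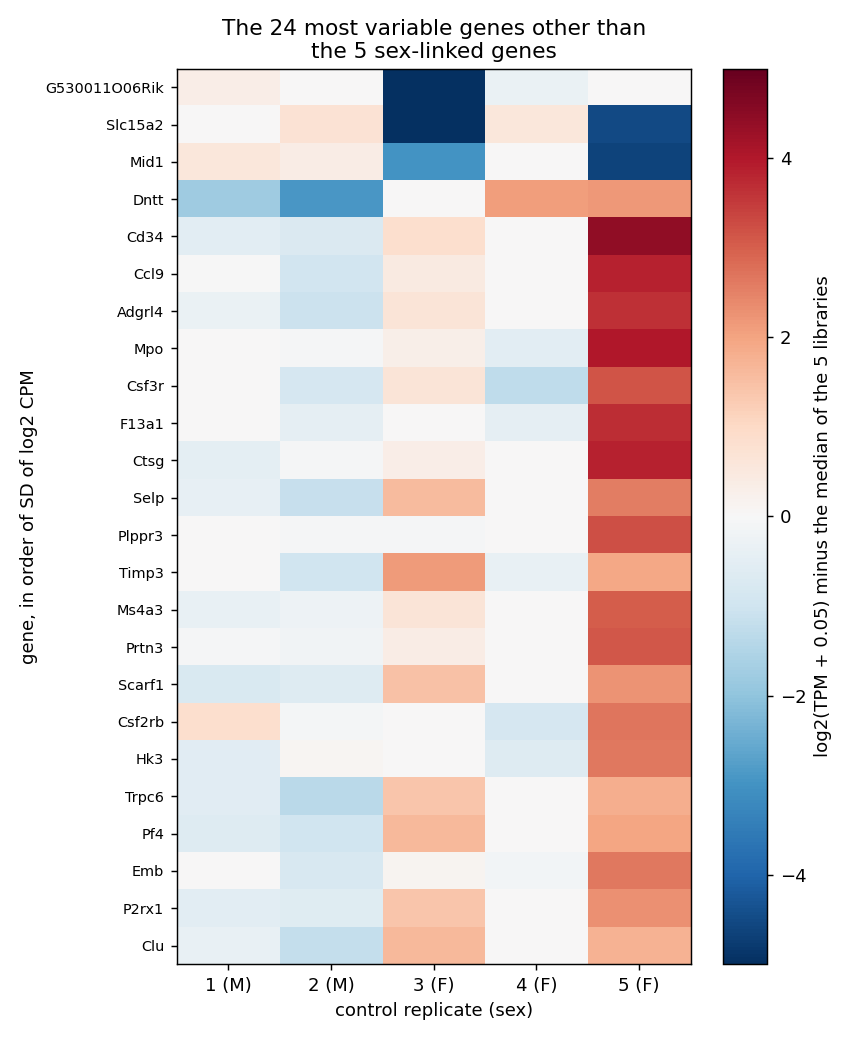
Level of the 24 most variable genes other than 5 sex-linked ones in each control library, as log2(TPM + 0.05) minus the gene's median, with colours saturating at 5 in either direction. Replicate 5 is high for most of them, and G530011O06Rik, Slc15a2 and Mid1 are low in replicate 3.

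3 genes did not follow a lineage. G530011O06Rik, on chromosome X, stood at 187, 150, 0.20, 116 and 147 TPM, so it was nearly silent in replicate 3 alone. Slc15a2, a peptide transporter, stood at 6.05, 10.1, 0.0660, 8.95 and 0.217 TPM, low in replicates 3 and 5. Mid1, a ubiquitin ligase gene on chromosome X, stood at 434, 384, 36.6, 294 and 11.7 TPM, low in the same 2 libraries. In the other 24 libraries G530011O06Rik was under 1 TPM in 5 and Slc15a2 in 1, and Mid1 ran from 1.89 to 274 TPM.

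The same genes could be read in the other genotypes, which the ranking did not use. An SD of at least 1 was found for 46 of the 77 genes (59.7%) in the 4 Ezh2 +/- libraries, against 1.36% of all genes. The shares were 48.1% against 1.46% with V617F alone, 81.8% against 1.87% with V617F and Ezh2 +/-, and 29.9% against 0.813% with V617F and Ezh2 -/-. The Ezh2 -/- group without V617F had 3 of the 77 (3.90%), against 0.0757% of all genes. Mpo there ranged from 4.0 to 17.8 TPM and Pf4 from 19.1 to 35.1, below the 2 highest control libraries for Pf4. In the Ezh2 +/- group Mpo ranged from 5.54 to 155 TPM and Pf4 from 35.0 to 147. The groups differ in size, in sex and in genotype, and the difference between them in spread was not tested.

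**Figure D5:**
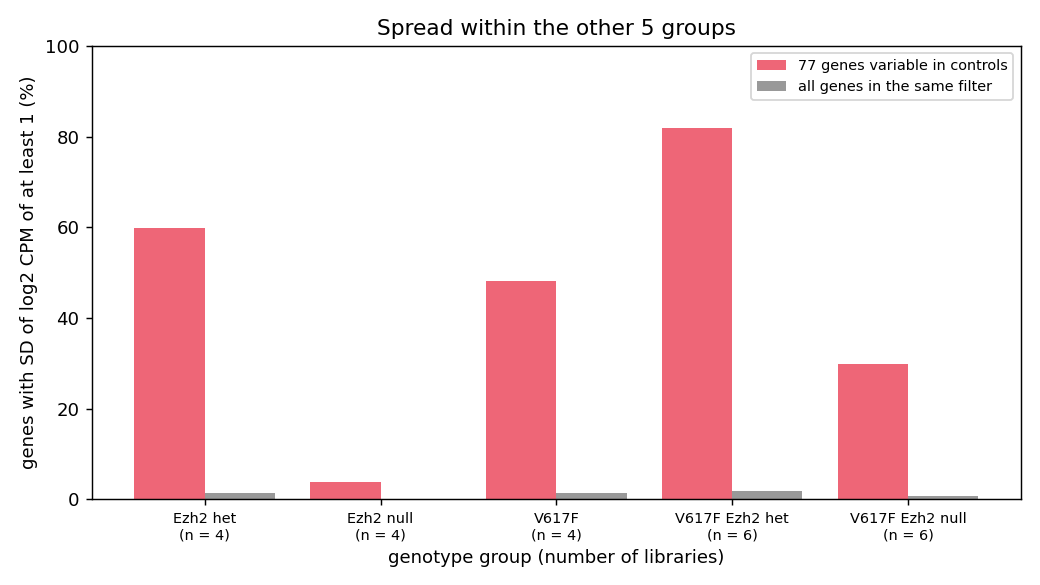
Share of genes with an SD of log2 CPM of at least 1 within each of the other 5 genotype groups, for the 77 genes variable in controls (red) and for all genes in the same filter (grey), as bars from 0. The red share runs from 3.90 to 81.8% and the grey share stays at or below 1.87%.

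Sex was the single labelled difference among the control libraries. edgeR's quasi-likelihood test over 13145 genes called 5 at a Benjamini-Hochberg adjusted p under 0.05 (0.038%), with 1 higher in females (0.00761%) and 4 higher in males (0.0304%). Xist, the RNA that coats the inactive X chromosome, was higher in females by 12.72 ± 0.19 (SE) on the log2 scale (edgeR adjusted p = 3.9e-06). The Y-linked genes were near 0 in the females, and their male levels, against the floor of 3 counts in a female library, were at least 1442-fold higher for Ddx3y, 893-fold for Eif2s3y, 411-fold for Kdm5d and 357-fold for Uty. These values match the labelled sex of all 5 libraries. No autosomal gene was called by edgeR, while 1029 genes had an unadjusted p under 0.05. The alternative test DESeq2 called 63 genes, 53 of them autosomal. edgeR called 6 genes without replicate 5, 0 of them autosomal, and 6 without replicate 4, 1 of them autosomal. Of the 12 genes called in the 13 libraries without V617F, 4 were autosomal.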

How the data were processed

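RNA of 5 control MEP samples, and of 24 other samples used only for comparison of spread, was read from 1 deposited table per sample. The authors deposited raw counts per gene beside a gene length, and the sources used here do not say how that length was set. Reads were aligned with STAR to mm9, per the submitters' processing notes. The sources used here do not give the counting program or its strand setting, so reads of overlapping and antisense genes cannot be told apart. Entrez identifiers were named with a RefSeq GRCm38.p6 table, which matched 18772 of 18834, and the 62 unnamed genes held 0.884 to 2.68% of counts. In 7 sets of genes counts were identical in all 29 libraries.

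TPM was computed from counts and lengths with Python 3.11.15, pandas 2.3.3 and numpy 2.4.6. The members and the 33 gene lists were chosen with earlier results of these data known. Named genes are the 25 with the highest TPM, the markers, up to 8 highest and the undetected members of each list, the 30 most variable, the 15 steadiest and the called sex genes, plus those stated to be named later. Sex was tested with edgeR 4.0.16 in R 4.3.3 (filterByExpr, minimum count 10 and total 15, TMM, robust fit), with DESeq2 1.42.0 as an alternative. Levels were described without a test. The scripts were tested on simulated data. Alternatives were other thresholds, units, scalings and filters, and leaving out each library. Some genes that this rule would name are not reported here.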

Additional observations from a re-analysis of the deposited data

Results flagged for a closer look

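In 116 values tested over the 5 control libraries, 26 had 1 library far from the rest, with a gap to the nearest other library above 0.71 of the whole range. Chance flags about 1 in 20 groups, and the genes were partly chosen for their spread. Replicate 5 was the high library in 23 of the 26 and the low one in 2.

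The unnamed gene took 2.51% of counts and 9311 TPM in replicate 5. The 2 low values of replicate 5 were the summed red cell list at 11042 TPM and Car1 at 5028 TPM. Its high list sums were stroma and endothelium at 53.0 TPM and interferon response at 7579 TPM.

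Single genes high in replicate 5 were, in TPM, Mpo at 177, Prtn3 at 95.2, Ctsg at 50.3, Elane at 46.4, Ms4a3 at 17.7, Csf3r at 4.66, Csf2rb at 5.47 and Hk3 at 7.03 among myeloid genes. Cd34 stood at 35.8, Emb at 26.9, Adgrl4 at 20.05, Ccl9 at 7.72, F13a1 at 7.54 and Plppr3 at 5.22. The macrophage gene C1qa stood at 18.2, and the mast cell and basophil genes Cpa3, Fcer1a and Mcpt8 at 9.31, 3.40 and 1.69. Cdh5 at 0.0638 TPM rests on 7 counts. The exception was Col1a1, highest in replicate 1 at 0.125 TPM on 10 counts.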

How the results depend on the processing

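Of the alternative values for the main results, 40 kept within the limits set and 9 moved. These results are counts and shares, which have no direction to turn. The share of the top 25 genes was 7.93% when ranked by CPM and 11.9 to 12.3% with 1 library left out. The number of genes with an SD of at least 1 was 199 with a minimum of 0.5 CPM and 19 with a minimum of 10 CPM. It ranged from 20 (without replicate 5) to 131 with 1 library left out and was 25 without replicates 3 and 5 together, a setting chosen after seeing the data, as was leaving the unnamed gene out of the totals (83 genes). The sex test gave 63 calls with DESeq2, 12 in the 13 libraries without V617F and 5 to 6 with 1 library left out. The numbers of genes on moved by less than 1.5 times under each alternative run (9058 to 11484). No paired analysis was possible because the male controls have replicate numbers 1 and 2 and the females 3 to 5, so the groups share no number. Counts near the floor of 3 limit calls of genes as off, and 5 libraries limit every SD.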
